A study of Homo sapiens with 36 samples.

Results

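The lower part of glycolysis, from the splitting of fructose 1,6-bisphosphate to pyruvate, was followed here through 9 genes: ALDOA, ALDOC, TPI1, GAPDH, PGK1, PGAM1, ENO1, ENO2 and PKM. They were picked by name, as the enzymes of these steps, out of 19689 protein-coding genes. For each gene, the Cut&Run peaks whose summit fell in its GENCODE gene body or within 50 kb on either side were collected, which gave 598 of the 213711 peaks in the 18 anti-V5 peak lists and 68 of the 25783 regions called in at least 2 lists. The windows of TPI1 and ENO2 overlap, and 6 of the 68 regions lie in both.

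Hypoxia-inducible factors are heterodimers of an oxygen-regulated α subunit (HIF-1α or HIF-2α) and the constant subunit HIF-1β, and they bind the short hypoxia response element through the N-terminal part of each subunit. In cells with active VHL the α subunits are destroyed when oxygen is present. In clear cell renal cell carcinoma the loss of VHL keeps them stable at all times. Genes for glycolytic enzymes are among the best known HIF targets, and in hypoxia studies of many cell types they are ascribed mostly to HIF-1α, while HIF-2α is tied to other programmes.

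All libraries came from 786-O, a VHL-deficient clear cell renal cell carcinoma line that makes HIF-2α but no HIF-1α. In Cut&Run, a nuclease is brought to a chromatin protein by an antibody, and the DNA fragments cut loose around it are sequenced. Here the antibody was against the V5 tag, so that each library reports where the tagged protein sat, and a matched IgG library served as its background. Of the 36 libraries, 18 were anti-V5, with 3 from each of 6 lines.

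The WT line carried no tag and its lists measure the background of the antibody. The HIF-2α KIN line was 1 homozygous clone with V5 and HaloTag added to the endogenous HIF-2α. The 4 exogenous lines were WT cells that stably and weakly expressed a V5-HaloTag protein from the L30 promoter: HIF-2α, HIF-1α, and the chimeras HIF-2α/1α and HIF-1α/2α. The first name in a chimera gives the structured N-terminal part, called the DBD, and the second the C-terminal intrinsically disordered region, or IDR. These 4 lines still held their own untagged HIF-2α, which the antibody does not see. The labels do not say whether the replicates of a line were separate cultures, so p-values measure the spread between libraries, which may be technical. Peak lists hold no expression values, so the identity of the cells was not checked against marker genes.

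Tagged lists held 3984 to 20808 peaks and WT lists 392 to 9508, the longest being WT replicate 2. The mean depth over the genome was 0.241 to 0.625 fragments per base. A peak absent from a list was not called at that depth, which does not show that the protein was not there.

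The DNA under the peaks is shown first, because the 9 genes differ in what lies there. Each line gives hg38 sequence, 5′ to 3′, centred on the ACGTG nearest to the median peak summit of the gene in the tagged lists, with every ACGTG or GCGTG on either strand in capitals (CACGT and CACGC are the same words read on the opposite strand, and CACGTG holds ACGTG on both). These 5-base words are the core of the hypoxia response element. The first set holds the promoters of the 3 genes with the strongest peaks whose windows lie outside any annotated UTR: GAPDH (chr12:6533528-6533592, minus strand), ENO1 (chr1:8879250-8879314, minus strand) and ALDOA (chr16:30065532-30065596, minus strand).
GAPDH: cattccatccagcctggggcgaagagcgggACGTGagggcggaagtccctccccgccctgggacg
ENO1: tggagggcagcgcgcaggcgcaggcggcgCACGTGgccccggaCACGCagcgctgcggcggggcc
ALDOA: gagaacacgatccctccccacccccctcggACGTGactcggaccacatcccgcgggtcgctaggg

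ENO1 was the most word-rich of these, with 6 words (4 ACGTG and 2 GCGTG) within 200 bp of its median summit, against 2 at GAPDH and 1 at ALDOA. The palindrome CACGTG in the ENO1 line counts as 2 of its words. Further sequences are given for PGK1 (chrX:78104035-78104099, minus strand), for the PKM promoter (chr15:72230495-72230559, plus strand), and for ALDOC (chr17:28577100-28577164, minus strand), which has a palindrome of the same kind and hardly any peaks.
PGK1: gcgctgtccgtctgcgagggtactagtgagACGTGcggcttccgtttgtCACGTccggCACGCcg
PKM: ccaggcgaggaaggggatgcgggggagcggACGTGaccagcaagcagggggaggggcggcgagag
ALDOC: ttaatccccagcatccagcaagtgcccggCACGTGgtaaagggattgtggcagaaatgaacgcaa

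At TPI1 (chr12:6868076-6868104, minus strand), PGAM1 (chr10:97426009-97426037, plus strand) and ENO2 (chr12:6914450-6914478, plus strand) the nearest ACGTG lies where a UTR is annotated, and only the word and its closest neighbours are shown. The PGAM1 word lies upstream of that gene, which starts at 97426191, so the UTR there is not its own.
TPI1: gagtctggggctACGTGcggcggcgcacg
PGAM1: ctccGCGTGcttACGTGcgctccgtgact
ENO2: acccgcgctcgtACGTGcgcctccgccgg

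The last pair are intronic sites that matched the promoters in strength, in the first part of PKM (chr15:72226846-72226910, plus strand) and in DOC2A near ALDOA (chr16:30019486-30019550, minus strand).
PKM intron: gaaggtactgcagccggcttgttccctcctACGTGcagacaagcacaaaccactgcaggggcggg
DOC2A intron: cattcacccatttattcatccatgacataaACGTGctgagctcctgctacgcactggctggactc

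An ACGTG lay within 200 bp of the summit in 43.2% of all 25783 regions, and in 80.9% of the 1201 regions called in all 15 tagged lists and no WT list. Of the 14 regions near the 9 genes that were called in at least 12 tagged lists, 10 had one (71.4%), and of the other 54, 22 did (40.7%). In the 300-base promoters of RefSeq, which end 50 bases past the start site in the table used here, 21.4% of 35116 held an ACGTG, and 8 of the 12 entries that matched the 9 genes did. A match is a description of the letters and does not show that a protein binds there.

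Summits and words did not lie on top of each other in the same way at each gene. The ENO1 summits fell 29 to 66 bp from the centre of the printed ACGTG in all 15 tagged lists, on 1 side of it. At GAPDH they lay 57 to 111 bp away, at TPI1 57 to 141 bp and at PGAM1 138 to 190 bp, in each case on 1 side in every list. ALDOA was the exception among the strong promoters, with summits on both sides of the word, from 148 bp on one to 118 bp on the other. At GAPDH and PGAM1 the ranges of the 5 tagged lines overlapped. At ENO1 the HIF-2α summits (29 to 49 bp) and the HIF-1α summits (51 to 66 bp) did not. At TPI1 those of HIF-2α (-106 to -68 bp along the strand of the word) and HIF-2α/1α (-141 to -108 bp) did not. In both cases every other tagged line overlapped both, among them HIF-2α KIN (46 to 58 bp at ENO1 and -135 to -67 bp at TPI1). With 3 lists a line such pairs are described only, and their share over all promoters is not given here.

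**Figure D1:**
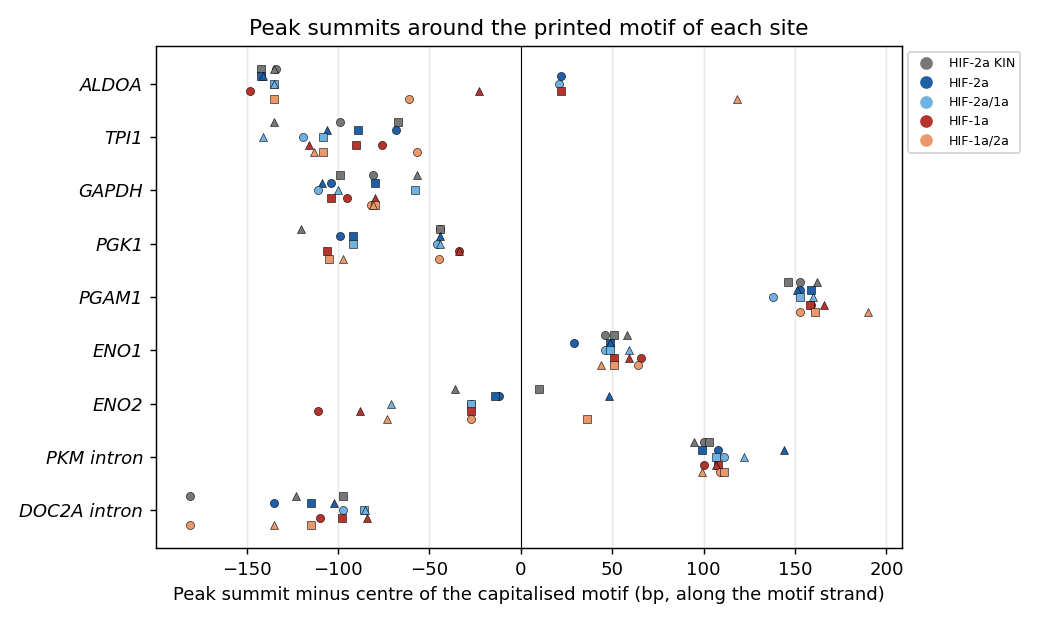
Position of each peak summit relative to the centre of the ACGTG printed for that site, in bp along the strand of the word, for the 15 tagged lists (colour, line; marker, replicate number). GAPDH, TPI1, PGAM1, ENO1, the PKM intron and the DOC2A intron each keep all their points on 1 side of 0, and ALDOA has points on both sides.

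A promoter peak was defined as a summit within 1 kb of any protein-coding start site of the gene. Across the genome, 49% of 19689 protein-coding genes had one in at least 1 of the 18 lists, and 2.56% (505 genes) had one in all 15 tagged lists. Of the 9 lower glycolysis genes, 7 had one in all 15. ALDOA (the main aldolase, which splits fructose 1,6-bisphosphate), TPI1 (triosephosphate isomerase), GAPDH (which oxidises glyceraldehyde 3-phosphate), PGK1 (phosphoglycerate kinase, the first ATP-yielding step), PGAM1 (phosphoglycerate mutase) and ENO1 (the widely expressed enolase) were each called in 15 of 15 tagged lists and in 0 of 3 WT lists. For each of them the two-sided Fisher's exact p was 0.00123, the smallest that 15 against 3 lists allow, and the adjusted p over 9656 promoters was 0.0303. By the same test 4.05% of those promoters passed, all of them called more often in tagged lists, while 6 of the 9 genes here did.

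The remaining 3 did not pass. PKM, the pyruvate kinase of most dividing cells, was called in 15 tagged lists and also in WT replicate 2 (adjusted p = 0.170, Fisher's exact test). ENO2, an enolase best known from neurons, was called in 14 tagged lists and no WT list, and was missing from HIF-2α KIN replicate 1, the shortest tagged list (adjusted p = 0.0687, Fisher's exact test). ALDOC, the aldolase of brain, was called in 2 tagged lists only, replicates 1 and 2 of HIF-2α/1α.

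These calls rest on the WT lists, which are few. Without any 1 of the WT libraries none of the 9 promoters passed the same test (adjusted p = 0.144 to 0.182 for the 6 genes, Fisher's exact test), since 15 against 2 lists cannot reach the adjusted threshold, although all 6 stayed at 15 tagged lists and 0 WT lists. Taking only the annotated 5′ end of each gene as its start site left 3 of the 6 (GAPDH, PGAM1 and ENO1), because the peaks of ALDOA, TPI1 and PGK1 lie at start sites inside the annotated gene body. With a distance of 500 bp in place of 1 kb, GAPDH dropped out with a difference in share of 0.2, its summit lying at -900 to -846 bp from the start site of the MANE transcript (upstream).

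How strong the peaks were is best read from their place in each list. Peaks were ranked within a list by the deposited −log10 p, with rank 1 the strongest and tied peaks sharing a mean rank. The 7 genes called in all 15 tagged lists had a median rank of 366 (the median of their medians), against 1209 over all 505 such promoters.

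GAPDH was the strongest. Its promoter peak ranked 137, 88 and 65 in the 3 HIF-2α KIN lists, 59, 119 and 107.5 with HIF-2α, 102, 149 and 76 with HIF-2α/1α, 195, 207 and 195 with HIF-1α, and 30, 113 and 90 with HIF-1α/2α. All 15 ranks lay in the top 5% of their lists, and by median rank (107.5) GAPDH stood at place 12 of the 505. By rank number the HIF-1α lists had the 3 lowest placings and did not overlap the other 4 lines. The lists differ in length, however. As a percent of the list, HIF-1α (1.01 to 1.29%) lay within the ranges of HIF-2α KIN (0.667 to 3.44%) and HIF-2α (0.576 to 1.82%).

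PGAM1 followed with a median rank of 162.5, at place 22. It ranked 59, 121 and 92 in HIF-2α KIN, 110, 381.5 and 634 with HIF-2α, 99, 681 and 398 with HIF-2α/1α, 35, 230 and 164.5 with HIF-1α, and 44, 291 and 162.5 with HIF-1α/2α. Replicate 1 had the best rank in each of the 5 lines, and the lines overlapped. The PGAM1 peak also lies within 1 kb of a coding start site of RRP12 on the opposite strand, so it cannot be credited to PGAM1 alone.

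ALDOA had a median rank of 366 (place 68) and stayed in the top 10% of every tagged list. The HIF-2α KIN lists gave its best ranks, at 54, 73 and 115, with 108.5, 297 and 526 for HIF-2α, 162, 369 and 366 for HIF-2α/1α, 501, 609 and 526.5 for HIF-1α, and 277, 436 and 596 for HIF-1α/2α. By rank number only HIF-2α replicate 1 reached into the range of HIF-2α KIN. As a percent of the list that range was 0.553 to 1.57%. HIF-2α replicate 2 (1.44%) and HIF-2α/1α replicate 1 (0.954%) then lay inside it, and HIF-2α replicate 1 (1.65%) did not.

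PGK1 had a median rank of 491 (place 90). It ranked 311, 237 and 475.5 in HIF-2α KIN, 466, 423 and 743 with HIF-2α, 882, 964 and 2081.5 with HIF-2α/1α, 491, 299 and 1666.5 with HIF-1α, and 225.5, 699 and 545 with HIF-1α/2α. By rank number the HIF-2α/1α chimera gave 3 of its 4 lowest placings, which did not hold as a percent of the list.

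TPI1 had a median rank of 628.5 (place 117) and the widest span of the 6 genes, from 129 to 3972. It ranked 129, 254 and 231 in HIF-2α KIN, 197, 505 and 710 with HIF-2α, 571, 846 and 1461 with HIF-2α/1α, 1299, 1592 and 3972 with HIF-1α, and 810.5, 569 and 628.5 with HIF-1α/2α. By rank number the 3 HIF-1α lists fell below those of HIF-2α KIN, HIF-2α and HIF-1α/2α without overlap. As a percent of the list, HIF-1α (7.74 to 25.0%) and HIF-2α (2.45 to 12.0%) overlapped.

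PKM and ENO2 were weaker. The best-ranked PKM promoter peak ranked 756 to 6112.5 in the tagged lists (median 1831, place 363), and 2351.5 in WT replicate 2. It was not the same peak in every list, since PKM has 12 coding start sites. Its summit lay -152 to 8475 bp from the MANE start (median 602 bp). The PKM ranks, and the comparisons made with them, therefore pool different sites. ENO2 ranked 1486.5 to 7280 (median 3238.25) in the 14 lists that held it, and in none of them did it reach the top 10%. The 2 ALDOC peaks ranked 11837.5 and 10859.

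**Figure D2:**
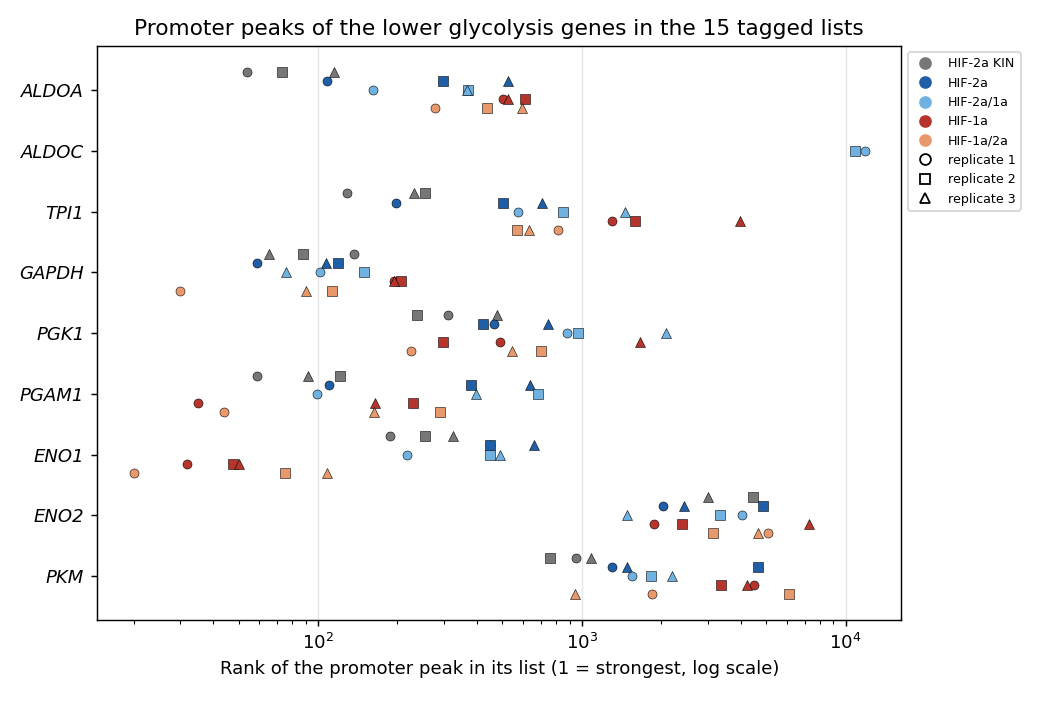
Rank of the promoter peak of each gene in the 15 tagged lists, on a log axis where 1 is the strongest peak of the list (colour, line; marker, replicate number). GAPDH keeps within 30 and 207, ENO1 splits into the HIF-1α and HIF-1α/2α lists at 20 to 108 and the others at 187 to 657, and ALDOC has only 2 points.

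ENO1 was the gene whose rank moved most with the tagged protein. It ranked 187, 255 and 325 in HIF-2α KIN, 450, 451 and 657 with HIF-2α, and 217, 449 and 489 with HIF-2α/1α. With HIF-1α it ranked 32, 47.5 and 50, and with HIF-1α/2α 20, 75 and 108. The 6 exogenous lists with the HIF-2α DBD (217 to 657) and the 6 with the HIF-1α DBD (20 to 108) did not overlap, and the HIF-2α KIN lists lay outside the range of the latter too.

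The domains were compared in the 12 exogenous lists over the 830 promoters called in all of them, which include 8 of the 9 genes (all but ALDOC). Labels were exchanged only among lists with the same other domain, in an exact permutation test of 400 relabellings with a smallest possible p of 0.005. The comparisons by DBD and by IDR use the same 12 lists. For ENO1 the mean log2 rank was 8.75 ± 0.53 (SD, n = 6) with the HIF-2α DBD and 5.59 ± 0.86 (n = 6) with the HIF-1α DBD, a difference of 3.16, or 8.96-fold in rank (two-sided exact permutation p = 0.005, adjusted p = 0.0494 over 830 promoters). It was the second largest difference by DBD of the 830, after PPP1R3C at 3.59, a regulator of glycogen synthesis. Within the replicate numbers it was 3.63, 2.91 and 2.95, and with either IDR held fixed it was 3.23 and 3.10.

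By DBD, 5.3% of the 830 promoters passed with a better place (a smaller rank number) for the HIF-2α DBD, 4.82% with a better place for the HIF-1α DBD, as at ENO1, and 4.58% had 6 and 6 lists apart. Of the 8 genes here, ENO1 was the only one to pass or to have its 6 and 6 lists apart. The adjusted p lies at the threshold: leaving out any 1 of the 12 lists kept p at 0.005 and the difference at 2.91 to 3.40, but the adjusted p was then 0.0614 to 0.0796 (exact permutation test). Ranking by the deposited fold in place of −log10 p gave a difference of 2.10 (exact permutation p = 0.05, adjusted p = 0.364). Ranking as a percent of the list gave 3.50 (exact permutation p = 0.005, adjusted p = 0.126). In both settings 0 of the 830 promoters passed by DBD.

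The IDR comparison of ENO1 gave a difference of 0.43 in log2 rank (exact permutation p = 0.35), which is no evidence that the IDRs act alike there. PGAM1 differed by 1.34 by DBD, stronger with the HIF-1α DBD, with overlapping lists (exact permutation p = 0.115, adjusted p = 0.291).

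By IDR none of the 8 genes passed on rank. The background was 1.69% of promoters placed better (a smaller rank number) with the HIF-2α IDR, 8.67% placed better with the HIF-1α IDR and 5.3% with lists apart. TPI1 came nearest. Its mean log2 rank was 9.03 ± 0.73 (SD, n = 6) with the HIF-2α IDR and 10.39 ± 0.95 (n = 6) with the HIF-1α IDR, a difference of -1.36 (exact permutation p = 0.01, adjusted p = 0.0703), and the lists overlapped. In a limma fit of the same values its adjusted p was 0.0124, where 135 of the 830 promoters passed by IDR. GAPDH differed by -0.88 (exact permutation p = 0.035, adjusted p = 0.135) and PGK1 by -0.85 (exact permutation p = 0.12, adjusted p = 0.281), against a median of 0.36 over all 830 promoters.

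A second scale was the number of fragments over the summit, worked out from the fold and −log10 p of each peak and divided by the mean depth of the library. ENO1 reached 209, 523 and 285 times the genome mean in HIF-2α KIN, 180, 466 and 166 with HIF-2α, and 406, 612 and 338 with HIF-2α/1α. It reached 455, 1200 and 493 times with HIF-1α, and 683, 1477 and 595 times with HIF-1α/2α. Replicate 2 was highest in all 5 lines, so the values were centred in each library on its median over the 830 promoters, in log2.

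After centring, ENO1 was at 1.02, 1.20 and 0.93 with HIF-2α and at 1.32, 0.80 and 0.87 with HIF-2α/1α. With HIF-1α it was at 1.95, 2.25 and 1.60, and with HIF-1α/2α at 2.74, 2.67 and 2.12. All 6 libraries with the HIF-1α DBD were above all 6 with the HIF-2α DBD. The difference of -1.20 (HIF-2α DBD minus HIF-1α DBD) is 2.29-fold (exact permutation p = 0.005, adjusted p = 0.0346). By the same test 7.59% of promoters had more fragments with the HIF-1α DBD and 6.87% had more with the HIF-2α DBD, and ENO1 was the only gene of the 8 in either class.

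By IDR, TPI1, GAPDH and PGK1 passed on the same scale, and ALDOA and PGAM1 went the same way without passing. TPI1 was at 1.55, 1.06 and 0.54 with HIF-2α and 0.61, 0.66 and 0.75 with HIF-1α/2α, against 0.38, -0.06 and -0.23 with HIF-2α/1α and -0.38, -0.51 and -1.26 with HIF-1α. All 6 libraries with the HIF-2α IDR were higher, by 1.21 in log2, or 2.31-fold (exact permutation p = 0.005, adjusted p = 0.0403). GAPDH was at 2.42, 2.46 and 2.42 with HIF-2α and 2.53, 2.60 and 2.29 with HIF-1α/2α, against 1.95, 1.61 and 1.67 with HIF-2α/1α and 1.43, 1.32 and 1.18 with HIF-1α. The 6 and 6 libraries were apart again, by 0.93 or 1.90-fold (exact permutation p = 0.005, adjusted p = 0.0403).

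PGK1 was at 1.55, 1.29 and 1.24 with HIF-2α and 1.53, 1.11 and 1.00 with HIF-1α/2α, against 0.78, 0.52 and -0.14 with HIF-2α/1α and 0.70, 0.75 and -0.19 with HIF-1α. These did not overlap either, and differed by 0.88 or 1.84-fold (exact permutation p = 0.005, adjusted p = 0.0403). In the whole set, 9.04% of promoters had more fragments with the HIF-2α IDR and 3.37% more with the HIF-1α IDR. ALDOA (0.63, adjusted p = 0.0755) and PGAM1 (0.62, adjusted p = 0.135) did not pass the same exact permutation test.

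These fragment differences depend on the centring. Before it, the median promoter had a log2 difference (HIF-2α domain minus HIF-1α domain) of -0.51 by IDR and 0.08 by DBD. Without it ENO1 had 1.18 more in log2 with the HIF-1α DBD and did not pass (exact permutation p = 0.025, adjusted p = 0.889). By IDR, TPI1 then had 0.65, GAPDH 0.38 and PGK1 0.33 more with the HIF-2α IDR, and none passed. Without centring, 0 of all 830 promoters passed by IDR or by DBD. This setting was added after the data were seen. Centring on 2720 merged regions in place of promoters kept all 4 past the threshold, at 0.89 for TPI1, 0.61 for GAPDH and 0.57 for PGK1 by IDR and -1.22 for ENO1 by DBD, where 33.3% of regions passed by IDR and 21.1% by DBD. The 4 differences are therefore ones relative to the other peaks of the same library.

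**Figure D3:**
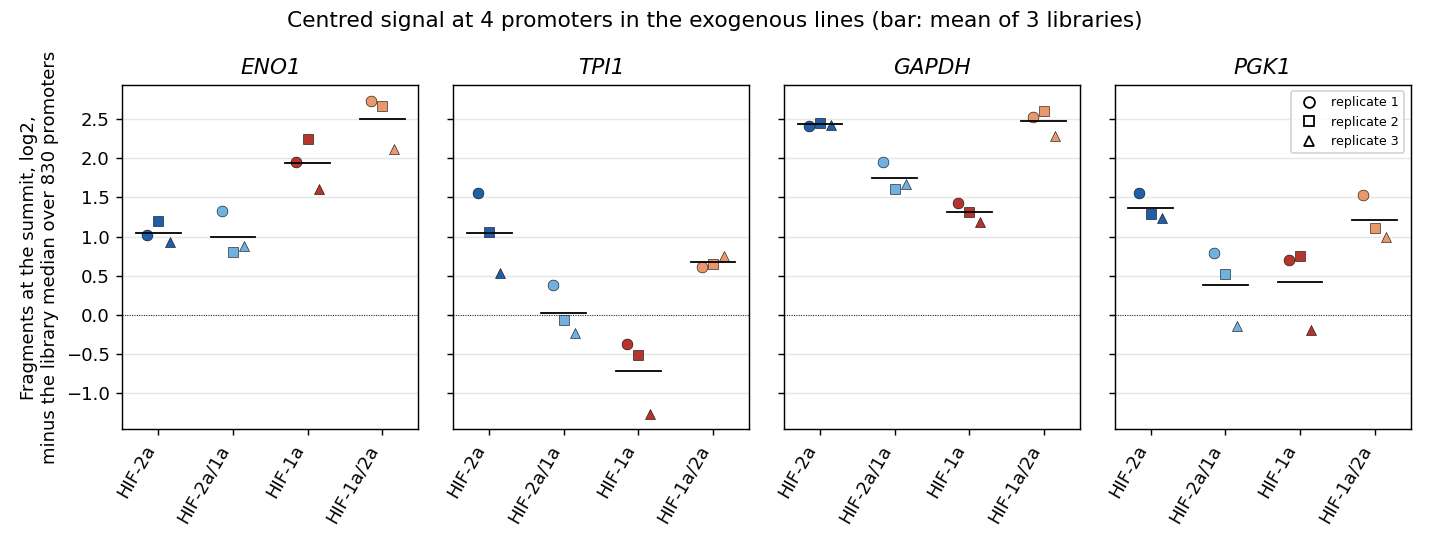
Fragments at the summit in log2, minus the library median over the 830 promoters, for ENO1, TPI1, GAPDH and PGK1 in the 4 exogenous lines (points, 3 libraries a line; bars, their mean). For ENO1 the lines with the HIF-1α DBD sit at 1.60 to 2.74 and those with the HIF-2α DBD at 0.80 to 1.32, while TPI1, GAPDH and PGK1 split by the IDR.

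Whether a promoter was called at all told the exogenous lines apart at none of the 9 genes. By IDR 1.47% of 9656 promoters and by DBD 0.425% had an unadjusted Fisher's exact p below 0.05, none passed after adjustment, and no gene here was among them. ALDOC, in 2 of 6 lists with the HIF-1α IDR and 0 of 6 with the HIF-2α IDR, had an unadjusted p of 0.455 (Fisher's exact test).

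Single lines have 3 lists each, so that a comparison of 2 lines cannot give an exact p under 0.1, and the lists are described only. The full-length HIF-1α and HIF-2α lists were apart for TPI1 (2.29 in log2 rank, weaker with HIF-1α), GAPDH (1.13, weaker with HIF-1α) and ENO1 (-3.59, stronger with HIF-1α). The chimeras were apart for PGK1 (-1.45, stronger with HIF-1α/2α) and ENO1 (-2.73, stronger with HIF-1α/2α). As a percent of the list, HIF-1α and HIF-2α overlapped for TPI1 (7.74 to 25.0% and 2.45 to 12.0%) and GAPDH (1.01 to 1.29% and 0.576 to 1.82%). So did the chimeras for PGK1, at 1.73 to 4.67% with HIF-1α/2α and 4.63 to 16.8% with HIF-2α/1α. ENO1 stayed apart in both pairs. The share of all promoters that were apart between the same lines is not given here. Between exogenous HIF-2α and the KIN, ENO1 (1.03) and PKM (1.18) were apart in rank, both placed better in the KIN lists. As a percent of the list these 2 overlapped as well, at 1.93 to 4.69% in the KIN and 2.18 to 11.1% with HIF-2α for ENO1, and at 5.73 to 23.8% and 19.8 to 25.2% for PKM.

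The summits were mapped against the start site of the MANE transcript. Counted along the gene, with upstream negative, the median summit lay at -61 bp at ALDOA, -135 bp at PGK1, -10 bp at PGAM1 and -143 bp at ENO2. At ENO1 it lay at -545 bp from the MANE start but 41 bp outside the outermost coding start site. At TPI1 it lay at 665 bp inside the gene, 1 bp from an internal coding start site. At GAPDH it was at -875 bp, so the promoter peak with the best median rank was also the one farthest upstream of its MANE start.

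PKM has 12 coding start sites, and its strongest peak was not at the outer ones. An intronic peak with a median summit at 72226985 on chromosome 15, in a region that also takes in the promoter (72225684 to 72232520), ranked 79, 61 and 56.5 in HIF-2α KIN and 202, 167 and 186 with HIF-2α. It ranked 187, 370 and 192 with HIF-2α/1α, 277, 290 and 776 with HIF-1α, and 364, 234 and 278 with HIF-1α/2α. The rank numbers of the 3 HIF-2α KIN lists were below those of the other 12, but the lists differ in length, and as a percent of the list the KIN (0.462 to 1.98%) and the HIF-2α lists (0.809 to 3.15%) overlapped. The WT replicate 2 peak in this region had its summit at 72231408, near the outer promoter and not at the intronic summit. By DBD the region differed by -0.69 in log2 rank (exact permutation p = 0.035, adjusted p = 0.132).

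Within 50 kb of the 9 genes, tagged lists held 16 to 54 peaks and WT lists 1, 7 and 0. As a share of the list this was 3.08 ± 0.62 per 1000 peaks (SD, n = 15) in tagged lists and 1.10 ± 1.31 (n = 3) in WT lists, whose ranges of 2.39 to 4.02 and 0 to 2.55 overlapped. With the HIF-2α IDR it was 3.25 ± 0.67 (n = 6) and with the HIF-1α IDR 2.72 ± 0.29 (n = 6), a difference of 0.536 against a spread of 0.535 within lines, with no test because the genes were chosen. A peak in every tagged list was found in the windows of 8 of the 9 genes (all but ALDOC), against 16.7% of 20033 such windows of protein-coding genes, and the median window held 5 peaks against 1.

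Of the 68 regions, 11 were promoters of the 9 genes, 24 promoters of their neighbours and 33 farther from any start site. The 11 include a site 5 bp from a start site of ATP7A (chromosome X, 77910386 to 77911495). It counts for PGK1 because the annotated PGK1 gene, 218557 bp long, starts next to it at 77910739, far from the MANE start at 78104248. The 68 regions were called in a median of 6 tagged lists, against 5 for all regions. By the two-sided Fisher's exact test, 7 passed an adjusted p of 0.05 (adjusted p = 0.0263 for each), against 4.66% of all 25783 regions. They were the 6 promoters named above and an intronic site of DOC2A, a calcium sensor of neurotransmitter release, on chromosome 16 from 30018602 to 30020600.

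The DOC2A site inside the ALDOA window had a median rank of 446.5, against 366 for the ALDOA promoter. It ranked 612.5, 488 and 211.5 in HIF-2α KIN, 491, 364 and 183.5 with HIF-2α, 319, 558 and 661 with HIF-2α/1α, 446.5, 838 and 457.5 with HIF-1α, and 289, 217 and 227 with HIF-1α/2α. The HIF-1α/2α lists were the most even and none of the lines stood apart from all others. By IDR it differed by -0.91 in log2 rank (exact permutation p = 0.02, adjusted p = 0.0869). In fragments centred over merged regions it had 0.68 more in log2 with the HIF-2α IDR. That difference passed (exact permutation p = 0.005, adjusted p = 0.0225), as did 33.3% of regions by IDR. No test here ties a site to a gene, and DOC2A, ALDOA and others lie within reach of it.

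Other sites called in at least 12 tagged lists and at most 1 WT list were fewer and weaker. The promoter of USP5, a deubiquitinase gene next to TPI1, was called in 15 tagged lists and WT replicate 2, at ranks of 998.5 to 3901. PPP4C, which encodes the catalytic subunit of a protein phosphatase downstream of ALDOA, had its promoter called in 14 (2409.5 to 12452.5). An intronic site of RRP12 near PGAM1 was called in 14 (1250.5 to 11196), an intronic site of TLCD3B near ALDOA in 13 (519 to 5555), and the promoter of C12orf57 near ENO2 in 13 (1069.5 to 6680.5). Ranked over 2720 merged regions, a test added after the data were seen, the USP5 region was the only one of these to pass by IDR (0.79 in log2 rank, stronger with the HIF-1α IDR, adjusted p = 0.0393, exact permutation test, against 12.7% of regions by IDR and 10.7% by DBD).

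The calls of the 68 regions differed little by domain. By IDR no region had an unadjusted Fisher's exact p below 0.05, against 1.39% of all regions, and the smallest p was 0.182. By DBD 1 had, against 0.555% of all, and none of all 25783 regions passed after adjustment in either comparison. The 1 region was a second site at TLCD3B (chromosome 16, 30051646 to 30052057), called in 5 of 6 lists with the HIF-2α DBD and 0 of 6 with the HIF-1α DBD (p = 0.0152, Fisher's exact test).

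**Figure D4:**
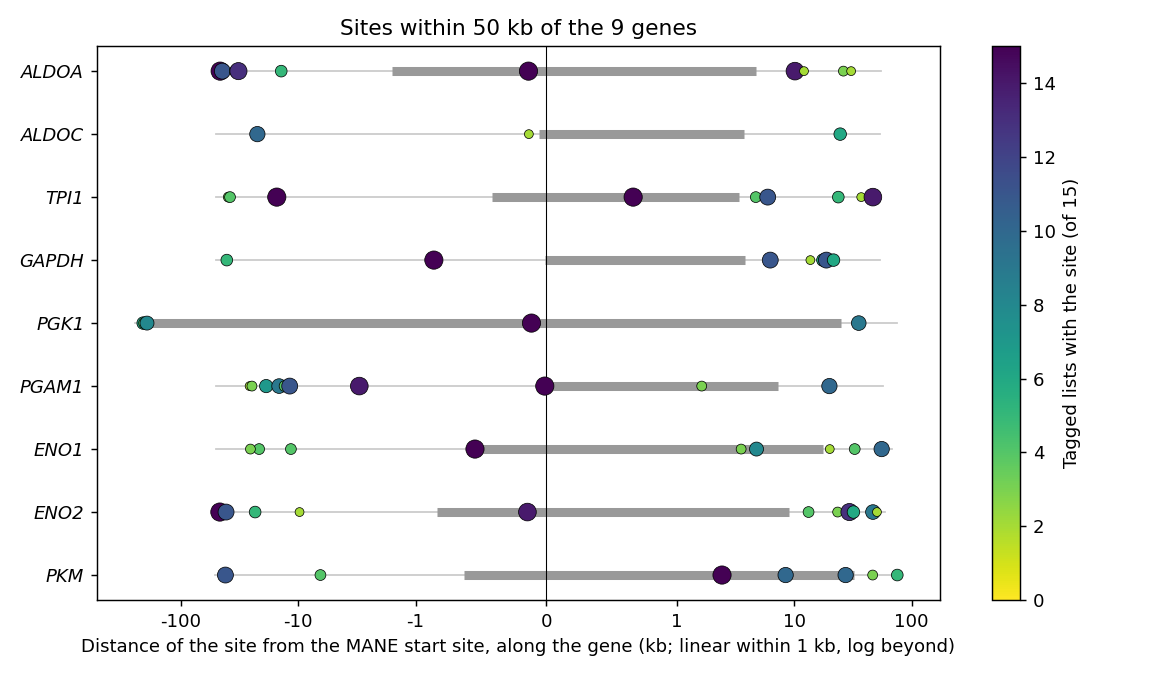
Sites within 50 kb of the 9 genes by distance from the MANE start site in kb (linear within 1 kb, log beyond), with each gene body as a thick bar and its window as a thin line; point size and colour give the number of the 15 tagged lists that held the site. Each gene but ALDOC has a site near its start that was called in 14 or 15 lists, and the other sites called as often are few.

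The other genes of the pathway were taken as lists by function. Of 6 paralogs and side enzymes of the lower steps (among them PGK2 of testis and PKLR of liver and red cells), none had a promoter peak in all 15 tagged lists and 4 had none in any. BPGM, which makes 2,3-bisphosphoglycerate in red cells, was called in 5 tagged lists. ENO3, the muscle enolase, was called in 14 tagged lists and no WT list at a median rank of 2915.5. Of all protein-coding genes, 10151 of 19689 had no promoter peak in any tagged list.

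Of the 10 genes of glucose uptake and the upper steps, 5 were called in all 15 tagged lists and 4 passed the test against WT (adjusted p = 0.0303, Fisher's exact test). These 4 were GPI (glucose-6-phosphate isomerase, median rank 58), PFKFB4 (which makes and breaks down fructose 2,6-bisphosphate, median rank 339), HK2 (hexokinase 2, median rank 596) and PFKL (the liver form of phosphofructokinase, median rank 1167.5). SLC2A1, the GLUT1 transporter, was called in 15 tagged lists and 1 WT list. SLC2A3, another glucose transporter, was called in 14 tagged lists and PFKP, the platelet form of phosphofructokinase, in 13, neither in a WT list. HK1 and PFKFB3 were each called in 14 tagged lists and 1 WT list. The promoter of PFKM, the muscle form of phosphofructokinase, was called in none.

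Of the 8 genes of pyruvate and lactate, 4 were called in all 15 and 3 passed: LDHA (lactate dehydrogenase A, median rank 166), PDK1 (470) and PDK3 (915.5), the latter pair being kinases that shut down pyruvate dehydrogenase. SLC16A1, a lactate transporter, was called in 14 tagged lists and no WT list. The promoter of SLC16A3, the other lactate exporter of the list, was called in 15 tagged lists but also in 2 WT lists. In these 3 lists, 12 genes were called in all 12 exogenous lists and could be tested on rank. None of them passed by DBD or IDR, against 84 of the 830 promoters by DBD and 86 by IDR.

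On centred fragments, HK2 was the only one of these to pass, with a DBD difference of -0.92 (HIF-2α DBD minus HIF-1α DBD, adjusted p = 0.0346, exact permutation test). Of all 830 promoters, 120 passed on this scale by DBD and 103 by IDR.

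**Figure D5:**
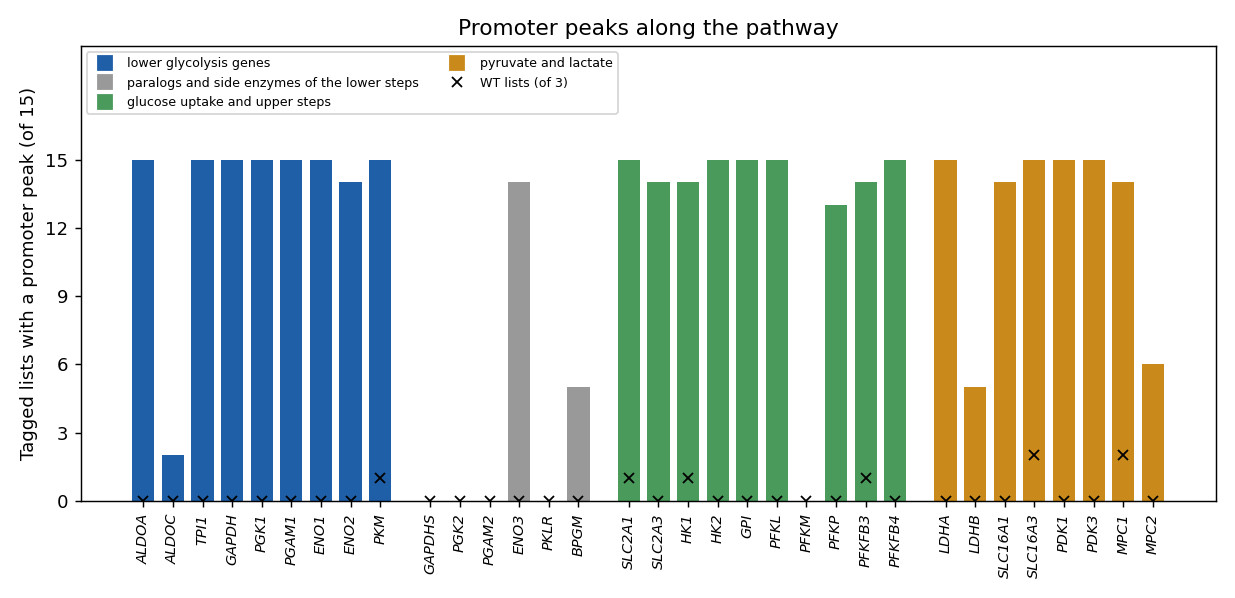
Number of the 15 tagged lists with a promoter peak (bars) and of the 3 WT lists (crosses) for each gene of the pathway lists, coloured by list. Of the 9 lower glycolysis genes 8 reach 14 or 15 tagged lists, while 4 of the 6 paralogs and side enzymes have no bar.

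For each gene called in all 15 tagged lists, the 2 promoters of most like rank were sought over those 15 lists, by the mean absolute difference in log2 rank. The nearest to PGK1 were NDRG1 (0.47) and PDK1 (0.65), and the nearest to PGAM1 were LDHA (0.61) and ENKUR (0.80). ALDOA was nearest to KDM3A (0.60) and BHLHE40 (0.64), GAPDH to SPIDR (0.55) and TNIP1 (0.79), and TPI1 to RIT1 (0.69) and ARHGEF16 (0.72). ENO1 had the most distant neighbours, DDIT4 (0.82) and RIPK4 (0.96), and PKM matched IKBIP and APAF1 equally (0.60 each), a pair with the same rank in each list. The measure takes in level as well as pattern and says nothing about shared function or control.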

How the data were processed

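Peak lists were deposited for 18 anti-V5 libraries of 6 lines. Per the labels and the study's methods, the authors aligned reads to hg38 and called peaks with MACS2 for each library against its own IgG library, and the submitters' processing notes name Bowtie2 2.3.4.1, SAMtools 1.8, deepTools 3.5.1 and bedtools 2.28.0. The deposited columns used were the position, the summit offset, the fold enrichment (a ratio), −log10 p and −log10 q, as the authors' caller wrote them. Fragments at a summit were solved from the deposited fold ratio and −log10 p, and for peaks with a −log10 p under 100 came out whole within 0.001 for 100% of peaks in 17 lists and 99.3% in HIF-2α/1α replicate 2. Read alignments were not used here, so the peaks' absence has no count behind it, and intervals from reads cannot be given.

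Genes and start sites came from GENCODE release 44 and sequences from hg38, with promoter sequences of 300 bases from RefSeq. Peaks of all 18 lists that overlapped by at least 1 bp were merged, and regions in at least 2 lists were kept. Calls were compared with two-sided Fisher's exact tests, and log2 ranks with exact permutation tests over libraries, both with Benjamini-Hochberg adjustment over all promoters or regions, since fold and p of different lists are not on one scale. The tests were first tested on simulated data. All 9 genes are named whatever their values, and other genes of the pathway lists and window sites where called in at least 12 tagged and at most 1 WT list, with the site of the largest difference in calls by DBD. BPGM, PFKM, PGK2, PKLR and SLC16A3 lie outside this rule and were named after their values were seen. The genes, lists and rules were chosen with earlier results of these data known. Alternatives were the peak threshold, list length, promoter distance, start sites, window flank, ranking by fold or percent of the list, fragments, limma, a replicate block and leaving out each library. Python 3.11.15, NumPy 2.4.6, SciPy 1.17.1, pandas 2.3.3, R 4.3.3 and limma 3.58.1 were used. Of the list of paralogs and side enzymes, 1 gene is not reported here.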

Additional observations from a re-analysis of the deposited data

Results flagged for a closer look

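In groups of 6 lists that share a domain, 32 groups of promoter ranks were searched for a list that stands far from the others (Dixon's criterion), where chance alone marks about 1 group in 20. Among lists with the HIF-2α IDR, the TPI1 promoter ranked 197 in HIF-2α replicate 1, and its gap to the nearest of the other 5 lists was 0.666 of the range. Among lists with the HIF-2α DBD, the ENO1 promoter ranked 217 in HIF-2α/1α replicate 1, with a gap of 0.656 of the range. The ENO1 difference by DBD was as large without that list (3.36 in log2 rank, adjusted p = 0.065 by the exact permutation test).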

How the results depend on the processing

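The count of lower glycolysis promoters called more often in tagged than in WT lists was 6, fell to 3 with only the annotated 5′ end as start site, and ranged from 0 to 7 when 1 library was left out, being 0 without any 1 WT library and 7 without HIF-2α KIN replicate 1. The count of regions ranged from 0 to 10. At 5 kb, GAPDH and ENO1 lost their call (adjusted p = 0.159 each, Fisher's exact test). For rank by DBD, the count of 1 (ENO1) became 0 by fold and 0 by percent of the list (3.50 in log2, adjusted p = 0.126, exact permutation test). It was also 0 with fragments not centred, 0 under the replicate block and 0 without any 1 library. In the first 4 of these settings 0 of all 830 promoters passed by DBD, against 84 in the main setting. The cause was not tested. The replicate block exchanges labels only within a number and has 64 relabellings with a smallest p of 0.03125, which ENO1 reached (adjusted p = 0.144), and it changed no other call. Same-numbered libraries of different lines correlated by 0.0338 to 0.183 in their deviations, and every library was closest to its own number, but the labels do not say what a number shares. For rank by IDR, the count of 0 became 3 with centred fragments and 1 by limma (TPI1). Of all 830 promoters, 103 passed by IDR with centred fragments and 135 by limma, against 86 in the main setting.

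Directions turned only in differences that had not passed. They were PKM by DBD at 500 bp (0.027), ENO1 by IDR by fold (-0.68), and by percent of the list ALDOA (0.28) and PKM (0.19) by IDR and GAPDH by DBD (0.094). With centred fragments, signed like ranks, they were PGAM1 (-0.62), ENO1 (-0.31) and ENO2 (-0.00092) by IDR and PGK1 by DBD (-0.059). With fragments not centred, an alternative chosen after seeing the data, they were PGAM1 (-0.064) and PKM (0.28) by IDR and PGK1 (-0.070) by DBD. Leaving out 1 library gave -0.51 to 0.064 for ALDOA and -0.37 to 0.54 for PGAM1 by IDR. Of the alternatives for single genes that left out no library, 184 kept direction and call. A peak's absence is limited by depth and by the few WT lists.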
